A study of Mus musculus with 3 samples.

Results

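The 107 gene models examined here are those of small nucleolar RNAs (snoRNAs) and small Cajal body RNAs (scaRNAs), taken as every model whose name starts with Snord, Snora or Scarna followed by a digit. They are 64 Snord, 34 Snora and 9 Scarna models among 22658 gene models, with 106 distinct names because Snord58b is listed at 2 places. They were read out by Bru-seq, which sequences only RNA that took up bromouridine, pulled down by an antibody, and so reports recent transcription rather than stored RNA. The cells were NB490, a mouse pancreatic cancer line selected with puromycin for an inducible short hairpin RNA (shRNA) against PDX1, a transcription factor of the pancreas. All 3 libraries carried the hairpin and were labelled with 2 mM bromouridine for 30 min: uninduced cells (no doxycycline), cells 48 h into doxycycline, and a grown-out population kept under the drug for over 3 weeks. No library with a control hairpin, or with doxycycline but no hairpin, was analysed here, so doxycycline and PDX1 knockdown cannot be told apart. With 1 library in each condition, no difference below has a replicate check or a p-value, and every interval is a 95% interval that covers counting error only.

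Snord models are C/D box snoRNAs, which pair with ribosomal RNA and direct fibrillarin to add a methyl group to the ribose at the paired base. Snora models are H/ACA box snoRNAs, which direct dyskerin to turn uridine into pseudouridine. Scarna models carry C/D boxes, H/ACA boxes or both, gather in Cajal bodies and guide the same changes on the small nuclear RNAs of the spliceosome. Most of these RNAs in mammals are cut out of the introns of a host gene after it is transcribed, and several of the host genes are long non-coding RNAs.

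The short RNAs can be seen in part through RefSeq microRNA hairpins that lie inside or across 7 of the models in build GRCm38.p6. Of these, 6 are shown because they hold UGAUGA near the parent's 5′ end or ACA near its 3′ end. Whether these letters are the box of the parent RNA was not tested. The hairpin not shown, Mir1291 across Snora34, has its last ACA within the parent 106 bases before the parent's 3′ end. Capitals mark the C box letters UGAUGA in the Snord33 hairpin and the last ACA within the parent RNA in the others.
Mir1843b in Scarna3a (chr1:159340358-159340423, plus): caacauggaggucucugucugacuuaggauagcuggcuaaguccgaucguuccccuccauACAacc
Mir1843a in Scarna3b (chr12:80391613-80391677, minus): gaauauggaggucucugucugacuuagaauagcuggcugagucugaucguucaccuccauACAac
Mir3069 in Scarna13 (chr12:105031077-105031141, minus): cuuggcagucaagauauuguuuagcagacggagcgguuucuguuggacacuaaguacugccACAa
Mir3084-2 in Snora19 (chr19:60774329-60774397, minus): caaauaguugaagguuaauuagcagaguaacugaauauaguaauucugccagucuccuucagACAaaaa
Mir664 in Snora36b (chr1:185242975-185243043, plus): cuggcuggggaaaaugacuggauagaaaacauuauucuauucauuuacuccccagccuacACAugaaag
Mir5121 across the start of Snord33 (chr7:45126918-45126991, minus): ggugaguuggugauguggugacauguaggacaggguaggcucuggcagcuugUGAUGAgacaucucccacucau
In Scarna13 and Snora19 3 bases separate this ACA from the RefSeq 3′ end, the spacing known for the ACA box. The gap was 4 bases in Scarna3a and 1 base in Scarna3b and in Snora36b, a model with only 2.62 summed reads. The UGAUGA letters began at base 7 of Snord33. Among all 1005 hairpins of the table, read on their own strand, 2.69% held UGAUGA and 67.3% held ACA somewhere, so the ACA letters alone mark little. Outside the hairpins Scarna3a and Scarna3b were not compared, and whether reads over one could have come from the other was not tested. The Scarna3a and Scarna3b hairpins shared 59 identical aligned bases, 90.8% of the shorter. Their 5′ microRNAs start 1 base apart: the RefSeq mature forms are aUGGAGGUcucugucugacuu for mmu-miR-1843b-5p and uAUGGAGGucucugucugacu for mmu-miR-1843a-5p, with the seed (bases 2 to 8) in capitals. The deposited length fell short of the span by 66 bp in Scarna3a, 64 bp in Scarna3b, 64 bp in Snora36b and 28 bp in Snord33, the same sizes as their overlaps with the hairpins. It did not fall short in Scarna13 or Snora34, which overlap their hairpins by 65 and 73 bp.

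A read count here is the sum of read bases over a model, in steps of 1/52 of a read. All 303 values above 0 among the models under 1000 bp were multiples of this step, within a tolerance of 0.02 of a step, and 1.32% of them were whole reads. Most members are little longer than a read: Snord spans under 1000 bp were 45 to 221 bp with a median of 68 bp, and Snora and Scarna spans both had a median of 118 bp. With at least 10 summed reads over the 3 libraries there were 92 models, of which 53 were Snord, 31 Snora and 8 Scarna. Of the 15 under that minimum, 3 were listed at 0 in all libraries. A count of 0 allows up to 3 reads per library as a one-sided 95% limit, unlike the other intervals, which are two-sided. Just inside the minimum were Scarna3b with 12.2 and Snord1c with 13.9 summed reads, and just outside were Snord123 with 7.94 and Snord89 with 7.90. The models of the imprinted Snrpn locus, Snord116 and Snord64, held 1.08 summed reads together. The 92 models had a median of 75.8 summed reads, and 33 had at least 100.

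The Snora19 model cannot be read as that RNA. It spans 35.8 Mb of chromosome 19 (25016728 to 60850288, minus strand, as in the files), overlaps 331 other models, and has a RefSeq length of 56 bp. It held 97.5% of all Snora reads and 92.7% of all member reads, so sums are given without it. With it, the Snora sum was 60978 reads in uninduced, 51545 in 48 h and 46369 in grown-out cells.

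The libraries held 51006774 (uninduced), 48418864 (48 h) and 41632296 reads (grown-out), of which gene models took 78.1% to 79.4%. Pdx1 itself, which checks the labels only in part because an shRNA acts on finished RNA, had 1.59, 1.05 and 1.41 RPKM (reads per kilobase of model, scaled to library size) in the same order. Epithelial markers (Krt8, Krt18, Krt19, Epcam, Cdh1) held 24437, 21915 and 21233 reads, of which Cdh1 held 16422, 14991 and 14887. The epithelial label thus had Krt8, Krt18, Krt19 and Cdh1, whereas Epcam held only 76, 54 and 17 reads. Grown-out over uninduced, the ratio was 0.274 (0.152 to 0.468) for Epcam and 0.740 (0.665 to 0.821) for Krt19. It was 1.05 for Krt8, 0.945 for Krt18 and 1.11 for Cdh1. Markers of neurons (Snap25, Syt1, Rbfox3, Snrpn) held 189, 100 and 43 reads, those of endothelium 250, 229 and 135, those of immune cells 86.8, 78.1 and 64.4, those of fibroblasts 32, 15 and 15, and acinar markers 63, 53 and 50.

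By class, the sums over C/D and over H/ACA models were lower at 48 h than in uninduced cells and higher in grown-out cells than in either, whereas the sum over the Cajal body class was lowest in grown-out cells. The Snord sum was 2836 reads in uninduced, 2324 in 48 h and 2490 in grown-out cells, or 55.6, 48.0 and 59.8 RPM (reads scaled to the library total as in RPKM, without the length). The Snora sum without Snora19 was 1398, 1217 and 1380 reads, or 27.4, 25.1 and 33.1 RPM. The Scarna sum was 272, 230 and 140 reads, or 5.34, 4.74 and 3.35 RPM.

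Scaled to library size, the 48 h to uninduced ratio was 0.863 (0.817 to 0.912) for Snord and 0.917 (0.849 to 0.992) for Snora. Grown-out over uninduced, it was 1.08 (1.02 to 1.14) for Snord and 1.21 (1.12 to 1.30) for Snora. Grown-out over 48 h, it was 1.25 (1.18 to 1.32) for Snord and 1.32 (1.22 to 1.43) for Snora. None of these 6 intervals includes 1, and the comparisons share libraries, so they are not separate observations. Snord22 alone held 37.6% of the Snord reads; without it the Snord ratios were 0.929, 1.23 and 1.32.

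The Scarna ratio was 0.889 (0.744 to 1.07) for 48 h over uninduced, 0.629 (0.511 to 0.776) for grown-out over uninduced and 0.707 (0.570 to 0.877) for grown-out over 48 h. Much of this was Scarna2. Without it the ratios were 1.16 (0.937 to 1.42), 0.895 (0.706 to 1.12) and 0.774 (0.615 to 0.970), so that only the last interval excludes 1. The sum does not describe most of its models: 5 of the 8 with enough reads had a grown-out to uninduced ratio above 1, with a median log2 ratio of 0.27, though none of the 5 lay beyond counting error.

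**Figure D1:**
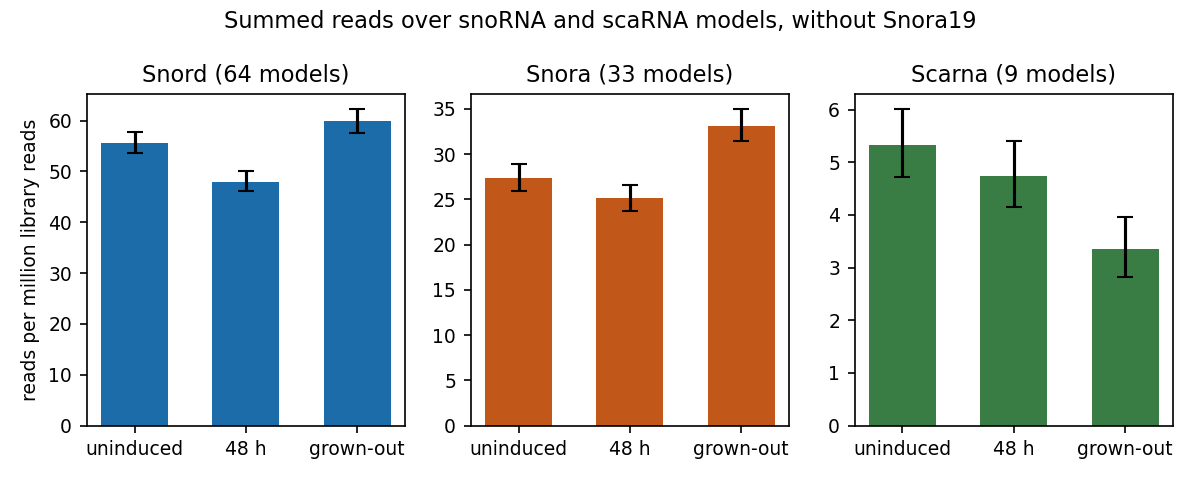
Reads scaled to library size (RPM) and summed over the Snord, Snora and Scarna models for uninduced, 48 h and grown-out cells, with 95% Poisson intervals as bars and without the Snora19 model. The Snord and Snora sums are lowest at 48 h (48.0 and 25.1 RPM), and the Scarna sum is lowest in grown-out cells (3.35 RPM).

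Few single models differed by much. A model was called past 2-fold where its RPKM ratio reached 2 in either direction and its interval excluded no change. At 48 h against uninduced, 2 of 92 models (2.17%) were higher past 2-fold, against 0.944% of all 14294 models with at least 10 reads and 2.49% of the 5098 models with 10 to 500 reads, the range that holds 90 of the members. In the same comparison 3 (3.26%) were lower, against 2.92% and 6.36%. In grown-out against uninduced cells 1 was higher (0.895% of all models, 2.28% of those with 10 to 500 reads) and 1 was lower (6.59% and 14%), each 1.09% of the members. In grown-out against 48 h cells 7 were higher, 7.61% of the members against 2.05% and 4.3%, and 3 (3.26%) were lower, against 5.46% and 11.7%.

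With no limit of size, 3 models (3.26%) were higher and 11 (12%) lower beyond counting error at 48 h against uninduced, where models with 10 to 500 reads gave 6.49% and 13.8% and all models 21.8% and 25.1%. In grown-out against uninduced cells 9 members (9.78%) were higher and 4 (4.35%) lower, against 6.08% and 22.1% of models with 10 to 500 reads and 22.8% and 29.2% of all models. In grown-out against 48 h cells 16 (17.4%) were higher and 3 (3.26%) lower, against 9.57% and 18% of models with 10 to 500 reads and 25.7% and 29% of all models. The counts over 92 models include Snora19, which was called lower in both comparisons with uninduced cells and higher in grown-out against 48 h cells. The share of members called higher in grown-out cells was thus above that of models with 10 to 500 reads and below that of all models, most of which have over 500 reads. The median log2 ratio of the 92 models was -0.05 at 48 h against uninduced, 0.23 in grown-out against uninduced and 0.27 in grown-out against 48 h cells. Over all models it was -0.02, -0.04 and -0.02, and over models with 10 to 500 reads -0.10, -0.22 and -0.12. At 48 h against uninduced 41 of the 92 ratios were above 1, beside 6813 of the 14280 models with reads in the 48 h library. In grown-out against uninduced cells 63 were above 1, beside 6394 of the 14206 models with reads in the grown-out library. In grown-out against 48 h cells 69 were, beside 6729 of 14206. Models without reads in the later library were also left out of the medians.

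**Figure D2:**
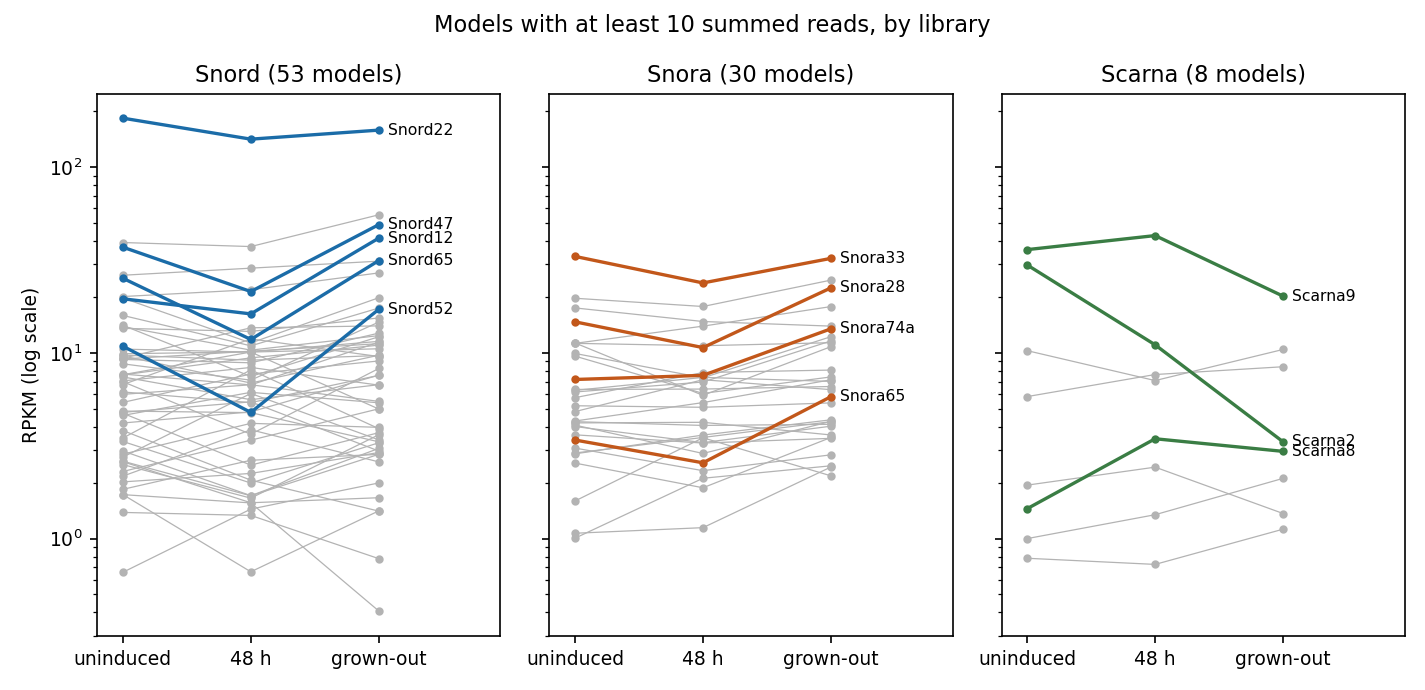
RPKM (log scale) of every model with at least 10 summed reads for uninduced, 48 h and grown-out cells, 1 line per model and 1 panel per class, without Snora19. Coloured lines are the labelled models; Snord47, Snord65 and Snord52 dip at 48 h, and Scarna2 is lower in each later library.

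Among C/D box models, Snord22 was by far the densest. Its counterpart in Xenopus is needed for maturation of the small-subunit ribosomal RNA rather than for methylation. It lies in Snhg1, a non-coding host, on chromosome 19 (8800356 to 8800481, plus strand, in the files' coordinates, whose build is not given in the sources used here). Snord22 had 184 RPKM (173 to 195) in uninduced, 142 (132 to 151) in 48 h and 158 (148 to 170) in grown-out cells. The 48 h to uninduced ratio was 0.771 (0.705 to 0.842) and the grown-out to uninduced ratio 0.862 (0.788 to 0.943), so uninduced cells had the most.

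Snord47 lies in Gas5, a non-coding RNA first described in growth-arrested cells. It had 37.1 RPKM in uninduced, 21.4 in 48 h and 49.1 in grown-out cells. The 48 h level was the lowest and the 3 intervals of the ratios all exclude 1: 0.577 (0.420 to 0.779) for 48 h over uninduced, 1.32 (1.03 to 1.71) for grown-out over uninduced, and 2.29 (1.71 to 3.14) for grown-out over 48 h.

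A similar course was seen at Snord65, in the non-coding host 2410006H16Rik, and at Snord52, in the non-coding host 1110038B12Rik. Snord65 had 25.2, 11.8 and 31.4 RPKM in uninduced, 48 h and grown-out cells, with ratios of 0.468 (0.306 to 0.728) for 48 h over uninduced and 2.66 (1.73 to 4.11) for grown-out over 48 h. Snord52 had 10.9, 4.78 and 17.2 RPKM, with ratios of 0.440 (0.221 to 0.858) and 3.59 (1.87 to 6.92). For both, the interval of grown-out over uninduced (0.90 to 1.76 and 0.965 to 2.54) includes 1.

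Snord12, in 1500012F01Rik (now Zfas1), was the only model higher past 2-fold in grown-out against uninduced cells. It had 19.6 RPKM in uninduced, 16.2 in 48 h and 41.5 in grown-out cells, a grown-out to uninduced ratio of 2.12 (1.55 to 2.91). Snord83b, in the ribosomal protein gene Rpl3, had 8.73, 7.13 and 14.7 RPKM and a grown-out to 48 h ratio of 2.06 (1.24 to 3.38). The remaining C/D models past 2-fold rested on fewer reads. Snord69, in Gnl3, a nucleolar GTPase gene, had 10.5, 23.1 and 9.60 reads, with a 48 h to uninduced ratio of 2.33 (1.11 to 5.70). Snord92, in Wdr43, a ribosome biogenesis gene, had 27.6, 34.7 and 14.7 reads and a grown-out to 48 h ratio of 0.493 (0.253 to 0.937).

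Snord2, in Eif4a2, and Snord17, in the sorting nexin gene Snx5, were among the models with most reads. Snord2 had 39.3, 37.4 and 55.4 RPKM, with a grown-out to uninduced ratio of 1.41 (1.12 to 1.79). Snord17 had 9.27, 10.2 and 11.2 RPKM and no ratio beyond counting error.

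Among H/ACA models, none was past 2-fold against uninduced cells, and against the uninduced library 5 of 31 (16.1%) stood higher in grown-out cells beyond counting error, with 1 (3.23%) lower, the Snora19 model. Of all models 22.8% were higher there, and of those with 10 to 500 reads 6.08%. Snora81, in Eif4a2, had 19.7 RPKM in uninduced, 17.8 in 48 h and 24.7 in grown-out cells, with a grown-out to 48 h ratio of 1.39 (1.1 to 1.75). It was among the 5 only narrowly, with a grown-out to uninduced ratio of 1.25 (1.0003 to 1.56). Scaled by the sum of gene-model reads, that interval (0.999 to 1.55) included 1. Snora28, in the translation initiation factor gene Eif5, had 14.7 RPKM in uninduced, 10.7 in 48 h and 22.4 in grown-out cells. Its grown-out to 48 h ratio was 2.10 (1.52 to 2.89) and its grown-out to uninduced ratio 1.52 (1.14 to 2.03). Snora74a, in the non-coding host Snhg4, had 7.19, 7.56 and 13.5 RPKM, with a grown-out to uninduced ratio of 1.88 (1.37 to 2.54). Grown-out cells stood apart at both models, while 48 h and uninduced cells did not differ beyond counting error.

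Snora65, in Rpl12, had 20.4, 14.6 and 28.5 reads and a grown-out to 48 h ratio of 2.27 (1.17 to 4.51). Snora33, in Rps12, had 33.1, 23.8 and 32.3 RPKM, lower at 48 h than in uninduced cells with a ratio of 0.719 (0.567 to 0.913). Snora23, in the nuclear import receptor gene Ipo7, had 11.3, 10.9 and 11.3 RPKM and no ratio beyond counting error. Its grown-out to uninduced ratio of 1.01 had an interval of 0.748 to 1.35, so smaller changes than those bounds were not detectable at this depth.

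The Cajal body class held the member whose grown-out to uninduced ratio lay farthest from 1. Scarna2, whose human counterpart guides methylation of the U2 small nuclear RNA, lies on chromosome 3 (108357260 to 108357320, minus strand) and in no host model on its strand. Its model is 61 bp long, little more than a read, and the counts cover that stretch only. It had 92.6 reads in uninduced, 32.6 in 48 h and 8.42 in grown-out cells, or 29.8 (24.1 to 36.6), 11 (7.69 to 15.7) and 3.32 RPKM (1.36 to 6.21). The 3 Poisson intervals do not overlap. The 48 h to uninduced ratio was 0.371 (0.243 to 0.562), the grown-out to uninduced ratio 0.111 (0.0442 to 0.216) and the grown-out to 48 h ratio 0.300 (0.113 to 0.623). Of all 14294 models, 189 had a grown-out to uninduced ratio as low, and 74 had an interval ending as low. The nearest model on its strand, Tmem167b, 2022 bp away, had 1.17, 1.26 and 1.2 RPKM, with intervals of all 3 ratios that include 1. Among marker genes of other cell types, Snap25, Syt1, Kdr and Col1a1 were lower past 2-fold in grown-out against uninduced cells. None was higher beyond counting error. Of 4 neuronal markers, Snap25 had 24 reads in grown-out against 124 in uninduced cells and Syt1 13 against 63, while Rbfox3 had 6 against 2 and Snrpn was at 0 in both. Of 4 endothelial markers, Kdr had 70 against 181 reads and Cdh5 0 against 1, while Pecam1 had 7 against 2, and Esam, with 57.7 against 66.3 reads, had a scaled ratio of 1.07. The intervals of Rbfox3, Pecam1 and Esam include 1. Of 4 fibroblast markers, Col1a1 had 12 against 32 reads, while Col1a2 had 2 against 0, Dcn 1 against 0 and Pdgfrb 0 in both. The part of these marker genes in the result was not tested.

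Scarna9, whose human counterpart also guides methylation of U2, lies in 5830418K08Rik, now Cep295, a centriole protein gene. Its model is 42 bp long, shorter than a read, and the counts cover that stretch only. It had 77.1, 87.1 and 35.3 reads, or 36.0, 42.8 and 20.2 RPKM, in uninduced, 48 h and grown-out cells. The grown-out level was the lowest, with ratios of 0.561 (0.362 to 0.841) over uninduced and 0.472 (0.307 to 0.70) over 48 h. The Cep295 model itself had a grown-out to uninduced ratio of 1.07. Scarna8, in the augmin subunit gene Haus6, had 8.71, 19.7 and 14.5 reads and a 48 h to uninduced ratio of 2.38 (1.02 to 5.84).

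The other 5 Scarna models had no ratio beyond counting error. Scarna10, whose human counterpart guides changes on the U5 small nuclear RNA, lies in the condensin gene Ncapd2 and had 10.3, 7.09 and 10.4 RPKM. Scarna13 in Snhg10 had 1.94, 2.42 and 1.36 RPKM, and Scarna3a in Rfwd2 (now Cop1, a ubiquitin ligase gene) had 5.81, 7.65 and 8.42. Scarna6 in Atg16l1, an autophagy gene, had 0.783, 0.725 and 1.12 RPKM, and Scarna3b in Dcaf5 had 0.999, 1.34 and 2.11. Their intervals were wide: that of grown-out over uninduced reached from 0.397 to 13.1 for Scarna3b and from 0.616 to 1.70 for Scarna10.

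**Figure D3:**
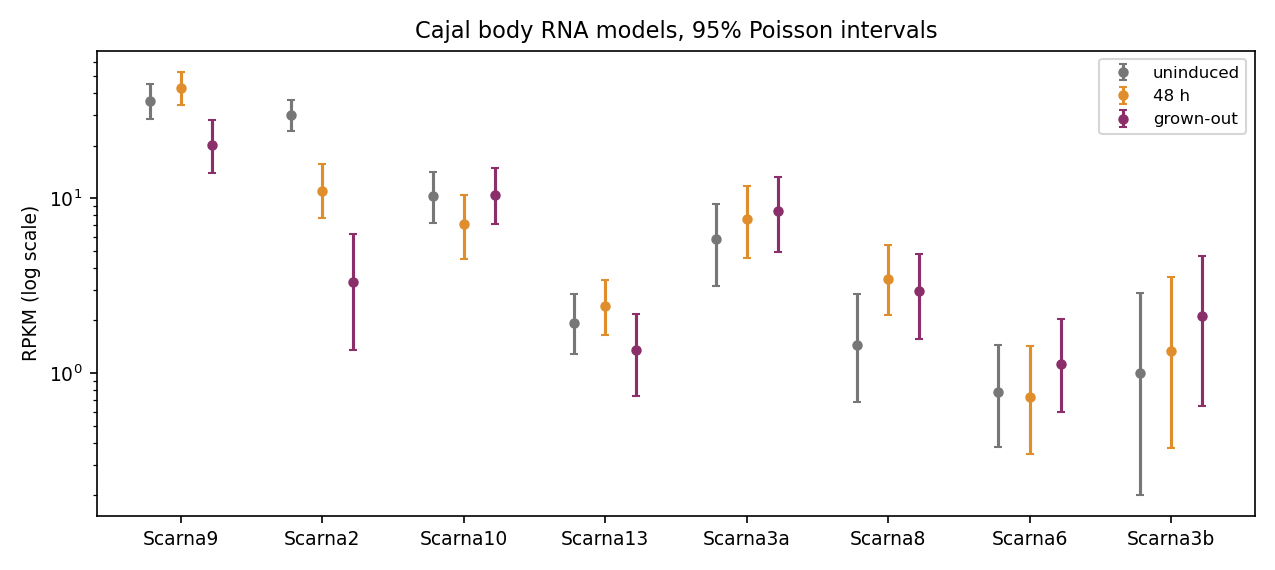
RPKM (log scale) of the 8 Scarna models with at least 10 summed reads for uninduced, 48 h and grown-out cells, with 95% Poisson intervals. Scarna2 is at 29.8, 11 and 3.32 RPKM with intervals that do not overlap, and Scarna9 is lowest in grown-out cells at 20.2 RPKM.

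Of the 92 models, 89 lay whole inside a host model on the same strand, in 65 hosts; the exceptions were Snora19, Scarna2 and Snora30. By RefSeq type, 70 were in protein-coding genes, of which 28 were in 20 ribosomal protein genes, and 19 were in 12 non-coding hosts. A read over a nested model can come from the host's unspliced RNA or from the small RNA, and these counts cannot tell them apart. Bulk counts also do not separate fewer cells making an RNA from less of it per cell.

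Split by host, the models in non-coding hosts showed the dip at 48 h most clearly. Their summed reads were 36.3, 28.5 and 38.2 RPM in uninduced, 48 h and grown-out cells, with a 48 h to uninduced ratio of 0.786 (0.732 to 0.843). Without Snord22, the ratio was 0.813 (0.723 to 0.913). Grown-out over uninduced, it was 1.05 (0.985 to 1.13) for all models in non-coding hosts and 1.39 (1.25 to 1.55) without Snord22. Models in ribosomal protein genes held 20.2, 18.4 and 22.5 RPM, with a 48 h to uninduced ratio of 0.912 (0.833 to 0.999). Their grown-out to uninduced ratio was 1.11 (1.02 to 1.22). Models in other protein-coding genes held 29.5, 29.6 and 34.8 RPM, with a ratio of 1.00 (0.934 to 1.08). This split by host was made after the values were seen, and the differences between host types were not tested.

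The non-coding host models themselves were mostly lowest at 48 h. At 48 h against uninduced, 9 of the 12 were lower beyond counting error and 0 higher, against 25.1% and 21.8% of all models. In grown-out against uninduced cells 8 were higher and 0 lower, against 22.8% and 29.2% of all models. In grown-out against 48 h cells 9 were higher and 0 lower, against 25.7% and 29%. Their median log2 ratios were -0.36, 0.31 and 0.62 in those comparisons. Gas5 had ratios of 0.636 (0.608 to 0.666), 1.28 (1.23 to 1.33) and 2.01 (1.92 to 2.10), and 1110038B12Rik 0.690, 1.44 and 2.09. The 20 ribosomal protein gene hosts were split: 4 were higher and 5 lower at 48 h against uninduced, and 6 were higher and 8 lower in grown-out against uninduced cells. Of the 33 other protein-coding hosts, 17 were higher and 12 lower at 48 h against uninduced. In grown-out cells 22 of them were higher and 4 lower against uninduced, and 21 higher and 9 lower against 48 h. A rise in grown-out cells was thus not particular to the non-coding hosts.

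Host genes of snoRNAs often start transcription at a C within a run of pyrimidines, the terminal oligopyrimidine start also found in ribosomal protein genes. RefSeq start windows (GRCm38.p6) were searched for a C at the annotated start that opens a run of at least 5 pyrimidines on the gene's strand, a motif chosen after values were seen. It was present in 6 of the 56 hosts with a window, 10.7%, against 3.01% of 27025 genes. The 6 windows are shown, with 20 bases before the start and 10 from it on, and the run in capitals.
Gas5, host of Snord47 (chr1:161035146-161035175, plus): gactcagccgccatctcagcCTTTCggagc
1110038B12Rik, host of Snord52 (chr17:34952459-34952488, minus): gaggcgggcggcacacgggtCTCTTTgtgc
Snhg7, host of Snora17 and Snora43 (chr2:26640235-26640264, minus): gtggcgtggagatgctcggcCTCTCggcag
Ipo7, host of Snora23 (chr7:110018295-110018324, plus): gggccttggcgcttctctttCCTTTCgcgc
Rack1, host of Snord95 and Snord96a (chr11:48800340-48800369, plus): tccggcggaggccgctctttCTTTTTCTCC
Rplp2, host of Snora52 (chr7:141447631-141447660, plus): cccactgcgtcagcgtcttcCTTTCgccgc
In Ipo7, Rack1 and Rplp2 pyrimidines also lie just before the annotated start. A window without the motif says only that these letters are not at that annotated base.

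The density of a model (reads per base) was set against that of its host outside nested models. Host models counted over at least 90% of their span were used, a limit set after seeing that others were counted over a small part; they held 81 models. The median density was 0.560, 0.633 and 0.607 times that of the host in uninduced, 48 h and grown-out cells. In the uninduced library 11 models were denser than the host and 45 less dense beyond counting error. The median there was 0.361 in ribosomal protein genes, 0.667 in other protein-coding genes and 0.761 in non-coding hosts. Levels of model and host in log2 RPKM correlated with r of 0.579, 0.508 and 0.618 over the 81 models, which share libraries and in part hosts.

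**Figure D4:**
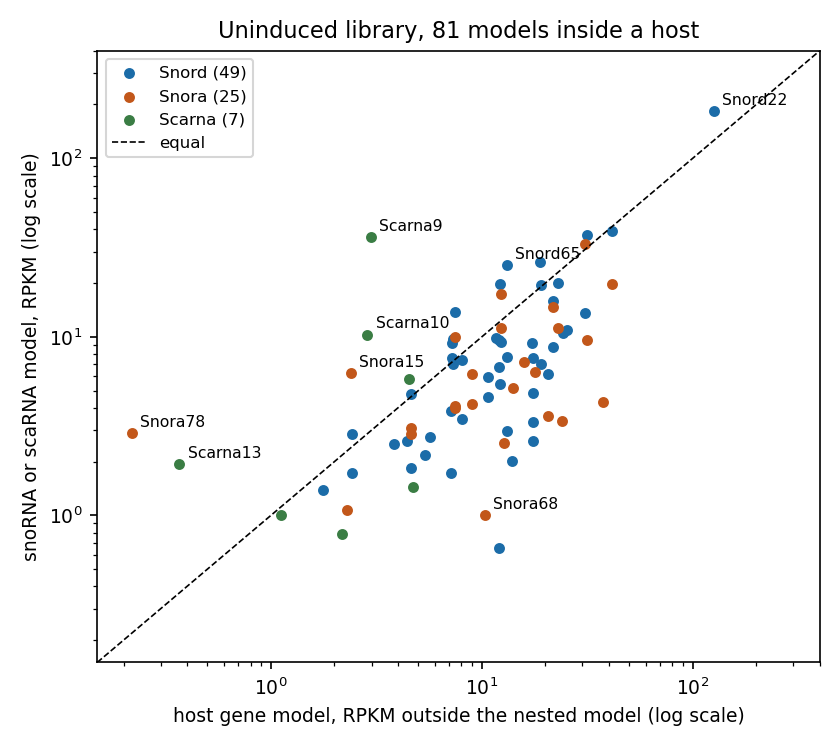
RPKM of 81 nested models (vertical) against that of the host outside them (horizontal) in the uninduced library, both on log scales, with the line of equal density. More models lie below the line than above it (45 against 11 beyond counting error); Scarna9, Scarna10, Scarna13, Snora15 and Snora78 lie above.

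The models densest over their hosts were Snora78 and 3 Scarna models. Scarna9 was 12.1 times as dense as Cep295 in uninduced, 14.9 in 48 h and 6.32 times in grown-out cells. Scarna10 was 3.59, 3.15 and 3.42 times as dense as Ncapd2, a steady excess. Scarna13 was 5.26, 4.41 and 2.47 times as dense as Snhg10. Snora78 was 13.2, 16.9 and 24.9 times as dense as Snhg9, but the Snhg9 model held only 3.10 reads in the uninduced library. Snora15 was 2.63, 2.65 and 2.58 times as dense as Cct6a, a chaperonin subunit gene, and Snord65 was 1.92, 1.16 and 1.79 times as dense as its host. At the other end, Snora69 in Rpl39 had 0.0221 of the host density and Snord42b in Rpl23a 0.0314 in uninduced cells, but both hosts were counted over part of their span.

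For most models a change unlike that of the host was not detectable at this depth. In grown-out against uninduced cells 3 of 81 (3.7%) had a higher change than the host beyond counting error and 4 (4.94%) a lower one. At 48 h against uninduced 3 (3.7%) had a higher and 2 (2.47%) a lower change, and in grown-out against 48 h cells 2 (2.47%) a higher and 3 (3.7%) a lower one. Some models in these hosts had themselves changed beyond counting error. At 48 h against uninduced, the change was unlike the host's in 4 of 10 of them. It was unlike in 5 of 11 in grown-out against uninduced and 5 of 16 in grown-out against 48 h cells. These models were picked by the same ratio that is set against the host, so the choice by itself raises these shares. The shares cannot tell how often a model changes apart from its host. Among all 81 models, some such calls can come from counting error alone. Snord22 had 0.715 (0.652 to 0.784) of the grown-out to uninduced change of Snhg1, whose own ratio was 1.21. Snord12 had 1.63 times (1.19 to 2.25) the change of its host, and Scarna9 had 0.524 of that of Cep295 (0.337 to 0.786). Snord47 kept to Gas5, with 0.906 (0.657 to 1.23) of the host's change at 48 h and 1.04 (0.803 to 1.34) in grown-out cells. Over the 29 models with at least 100 summed reads, model and host log2 ratios correlated with r of 0.491 at 48 h against uninduced, 0.470 in grown-out against uninduced and 0.718 in grown-out against 48 h cells.

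**Figure D5:**
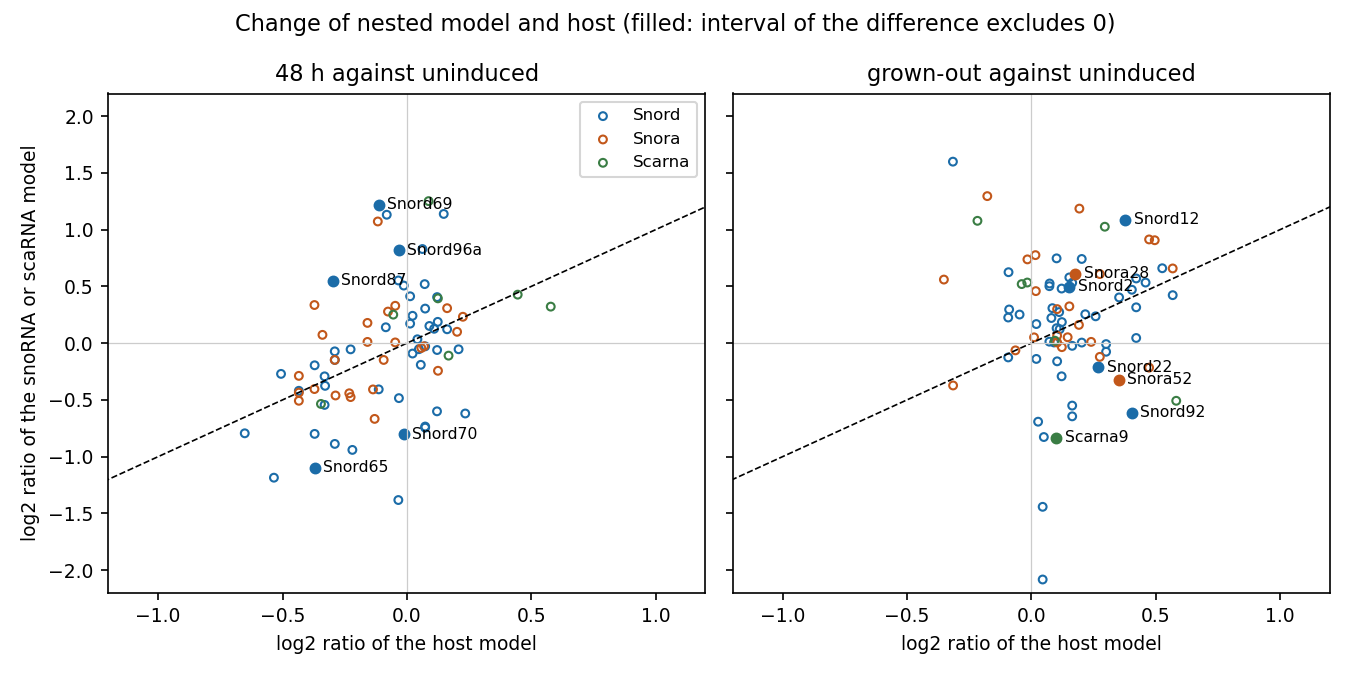
Log2 ratio of nested models (vertical) against that of their hosts (horizontal), for 48 h against uninduced and grown-out against uninduced cells, with the line of equal change. Filled points are models whose change differs from the host's beyond counting error, among them Snord22, Snord12 and Scarna9 in grown-out cells.

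Where a host held several models, these often differed in density although they share a transcript. Of 22 neighbouring pairs in 17 hosts, a comparison added after values were seen, the upstream model was denser in 7, the downstream one in 5, and 10 were within counting error over the summed libraries. In Eif4a2, a translation initiation helicase gene, upstream Snord2 was 2.12 times (1.85 to 2.42) as dense as Snora81. In Rps12, upstream Snord100 had 0.470 (0.385 to 0.573) of the density of Snora33. In 2410006H16Rik density was higher further along the gene, with Snord49b at 0.302 of Snord49a and Snord49a at 0.377 of Snord65. In Rpl13a it was lower further along, with Snord32a at 2.11 times Snord33 and Snord33 at 2.23 times Snord34.

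The genes for the proteins that bind and mature these RNAs were mostly a little higher in both doxycycline libraries. Of 27 measured genes of the core particles, assembly and Cajal bodies, 14 (51.9%) were higher and 1 (3.7%) lower beyond counting error at 48 h against uninduced, and 19 (70.4%) were higher and 0 lower in grown-out against uninduced cells, with none past 2-fold. Of the 9880 models with summed reads in the range of these genes (239 to 47128), 27% were higher and 29.5% lower at 48 h, and 28.8% were higher and 32.4% lower in grown-out cells. The median log2 ratio of the 27 genes against uninduced cells was 0.09 at 48 h and 0.22 in grown-out cells. Fbl, the C/D methyltransferase fibrillarin, had 1.68, 1.87 and 2.25 RPKM in uninduced, 48 h and grown-out cells, and Dkc1, the H/ACA pseudouridine synthase dyskerin, had 8.42, 8.06 and 11. Nop10, an H/ACA core protein, had 3.24, 4.80 and 3.25 RPKM, highest at 48 h. Nhp2, of the same particle, had 1.79, 2.37 and 2.19. Of the assembly and Cajal body genes, Naf1 had 3.34, 4.13 and 4.25 RPKM, Smn1 1.46, 1.89 and 1.8, Nolc1 3.13, 3.81 and 4.08, and Tcof1 0.599, 0.563 and 0.709. Wrap53, which brings scaRNAs to Cajal bodies, had 0.934, 1.00 and 1.09 RPKM, and Coil, the Cajal body scaffold coilin, 0.704, 0.732 and 0.790. Pih1d1, an assembly factor, was the 1 lower gene at 48 h, with 0.364, 0.226 and 0.353 RPKM.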

How the data were processed

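Bru-seq libraries of bromouridine-labelled RNA from 3 conditions, 1 library each, were used as deposited. Upstream tools, per the submitters' processing notes, were bedtools 2.16.2, TopHat 1.4.1, Bowtie 0.12.8 and CASAVA 1.8.2, with the human build hg19 named; the build of the mouse models is not given in the sources used here, and 0 of 106 members matched by name start within 10 bp of their GRCm38 start. Coordinates of models are as in the files; sequences are RefSeq's, GRCm38.p6. The deposited estimated counts are, per the file headers, read counts per whole gene model in fractions of a read, and were rounded to whole reads for intervals. The deposited RPKM values are, per the file headers, scaled by model length and library total. The deposited signal column of reads per kilobase is the authors' and was used only as an alternative to the counts. Per the labels' protocols, cDNA was size-selected on a gel, which can lower recovery of very short RNAs.

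Ratios of RPKM carry exact conditional binomial 95% intervals and levels exact Poisson ones, on PCR reads without molecular identifiers, so they cover counting error only. "Beyond counting error" means an interval that excludes 1. Calls were made over all models with at least 10 summed reads. A host was the shortest same-strand model, not itself a small RNA, that holds the whole member. Named were the 10 members with most reads, all past 2-fold, all Scarna models, the 6 highest and 3 lowest by density over host in uninduced cells, Snord22 as the 1 listed ribosomal RNA cleavage snoRNA, and genes of the protein lists with the largest ratios; other members, hosts and protein genes were named after their values were seen. A result for 1 gene that this rule names is not reported here. The members and lists were chosen with earlier results of these data known. The backgrounds of 10 to 500 reads and of the read range of the protein genes were chosen after values were seen. The interval code was tested on simulated counts. Python 3.11.15, SciPy 1.17.1 and R 4.3.3 were used, with edgeR 4.0.16 (TMM) and DESeq2 1.42.0 (size factors) only for alternative scalings; no count model could be tested without replicates.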

Additional observations from a re-analysis of the deposited data

Results flagged for a closer look

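Some ratios to the uninduced library pointed in opposite directions at 48 h and in grown-out cells, with both intervals excluding 1; this criterion replaced a stricter one, 1.5-fold each way, that no result met. The ratios for 48 h and grown-out cells were 0.577 and 1.32 for Snord47, 0.863 and 1.08 for the Snord sum, 0.917 and 1.21 for the Snora sum without Snora19, and 0.881 and 1.09 for all members without Snora19. The difference between the 48 h and grown-out effects was not tested against replicates, and both share the uninduced library.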

How the results depend on the processing

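No paired analysis was possible because each condition had 1 library, and for the same reason no library was left out. Depth limits the single models: with a median of 75.8 summed reads, their intervals are wide. Other scalings moved log2 ratios by at most 0.042 for all models.

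Of 126 sums, counts and host medians under alternatives, 93 stayed within the interval of a sum, within 1.5 times a count or within 1.1 times a host median, 28 moved and 5 reversed, all 5 of them grown-out against uninduced sums that contain Snora19. Leaving out the model with most reads gave a Snora ratio of 1.21 in place of 0.932 and 1.09 in place of 0.937 for all members. Restricting to members in a host gave 1.21 and 1.11, and leaving out Snora19 and Snord22 gave 1.17 for all members.

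For 48 h over uninduced, leaving out the top model gave 0.929 (Snord) and 0.917 (Snora), and members in a host gave 0.909 (Snora) and 1.15 (Scarna). Leaving out Scarna2 gave 1.16, and leaving out Snora19 and Snord22 gave 0.921 for all members. Scaling by gene-model reads gave 0.903 (Snora) and 0.902 (all). Requiring 50 summed reads left 3 members past 2-fold in place of 5.

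For grown-out over uninduced, the Snord sum without Snord22 was 1.23, and the Scarna sum was 0.901 in hosts and 0.895 without Scarna2. TMM scaling gave 0.95 (Snora) and 0.955 (all), and DESeq2 size factors 0.959 and 0.964.

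For grown-out over 48 h, leaving out the top model gave 1.32 (Snord), 1.32 (Snora) and 1.24 (all), and members in a host gave 1.33 (Snora) and 1.25 (all). Leaving out Snora19 and Snord22 gave 1.27. Scaling by gene-model reads gave 1.03 (Snora) and 1.04 (all), and DESeq2 size factors 1.07 for both. Over all 89 models in a host, the median density over host was 0.538 in uninduced and 0.561 in grown-out cells. With at least 50 summed reads it was 0.665 and 0.649. In hosts counted over nearly their whole span, the set used in the Results, it was 0.560 and 0.607. Host density as deposited already leaves out nested models, so leaving them out was not run apart. Putting members back into the host, an added alternative, gave 0.545, 0.606 and 0.566 in uninduced, 48 h and grown-out cells. Leaving out Snora19, Snord22 or Scarna2, and hosts restricted to nearly whole spans, were chosen after seeing the data. Of 234 ratios of single members under other scalings, 229 kept within their interval, and the 5 that moved were of Snora19.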
